A study of Homo sapiens with 2 samples.

Results

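SOX9 occupancy of 10 genes of the insulin-like growth factor (IGF) axis was examined in HT-29 cells, an established human colorectal adenocarcinoma line. The genes were listed by name: the ligand gene IGF2, the binding protein genes IGFBP2, IGFBP3, IGFBP4 and IGFBP6, the receptor genes IGF1R, INSR and IGF2R, and the receptor substrate genes IRS1 and IRS2. They are 10 of 20163 protein-coding genes of GENCODE release 44 on hg19. A SOX9 peak was assigned to a gene where its summit lay within 1 kb of an annotated transcription start site (TSS), in the gene, or in the 20 kb around it, which gave 23 of all 17847 peaks. The study holds 1 library of chromatin precipitated with a SOX9 antibody (Millipore) and 1 input library of DNA without antibody, both from untreated cells cultured overnight. The labels give DMEM as the medium, whereas the methods give McCoy's 5A. Each library held 12320108 tags, so heights and tags of both were compared without scaling. With 1 library of each kind no value has a replicate error and no test between conditions was possible. The intervals below cover counting error only. Duplicate reads had been removed by the authors, and 12319746 SOX9 tags and 12320062 input tags were unique.

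IGF2 is a secreted growth factor that acts through the receptor tyrosine kinases encoded by IGF1R and INSR, while the receptor encoded by IGF2R carries it to the lysosome. The IGF-binding proteins hold IGFs in the extracellular fluid and limit or prolong their action, and the substrates IRS1 and IRS2 pass the signal from the activated receptors to PI3-kinase. SOX9 is a transcription factor of the HMG-box family that is expressed in the crypt cells of the intestine, where IGFs act as growth factors. Most IGF axis genes with a SOX9 peak carried one at a TSS, and IGF1R and INSR carried further peaks in introns, far from their canonical TSSs. A summit within 1 kb of a TSS, here called a promoter peak, was found in 6 of the 10 genes (IGFBP4, IGFBP6, IGF1R, IGF2R, INSR and IRS2), against 44.8% of all protein-coding genes. A peak in the gene or 20 kb around it was found in 8 of 10, against 65.3%. IGFBP2 and IGFBP3 had no peak, and IGF2 and IRS1 had peaks away from their TSSs. Longer genes offer more room for a summit, and all 3 members of 100 kb or more (IGF1R, IGF2R and INSR) had a peak, against 70.2% of the protein-coding genes of that length. Without the flanks, 7 of the 10 genes had a summit inside the gene, against 34.3% of all protein-coding genes. These counts rest on 10 genes and were not tested, so nothing particular to the IGF axis is read from them.

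**Figure D1:**
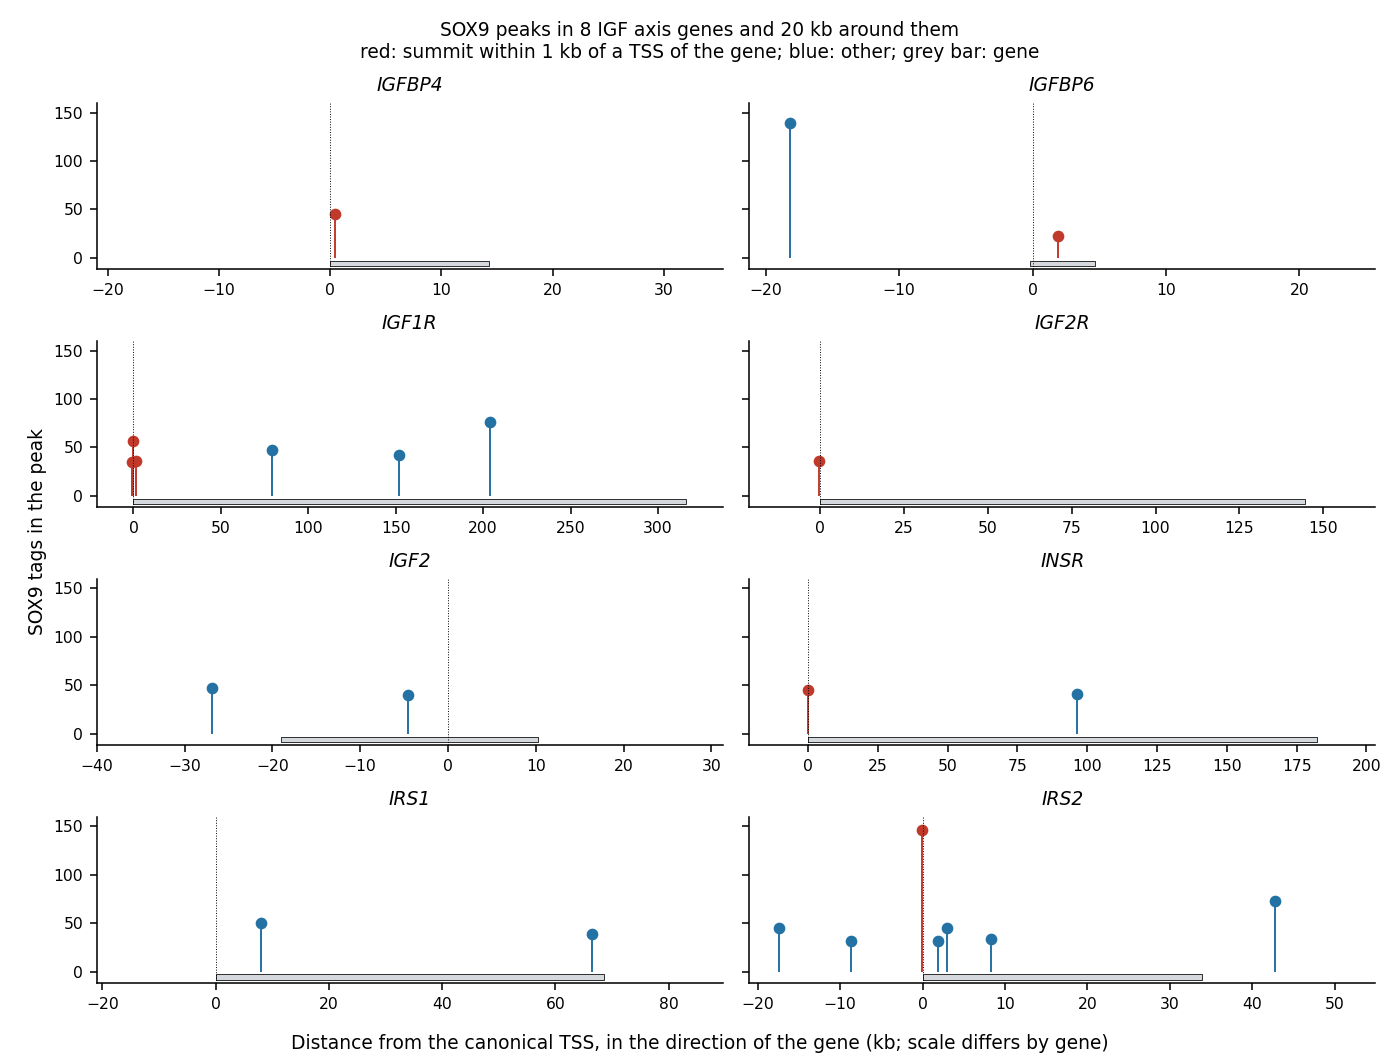
SOX9 peaks of the 8 genes with a peak, by the distance of the summit from the canonical TSS in kb (horizontal axis, scale differs by gene) and the SOX9 tags of the peak (vertical axis). Red points lie within 1 kb of a TSS of the gene, blue points elsewhere, and the grey bar is the gene. IRS2 carried 7 peaks and IGF1R 6, and the peaks of most tags were those at the IRS2 TSS (146) and near IGFBP6 (139).

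The sequences under the peaks differed. The study named 3 motifs, which were searched here as patterns written for this purpose. Motif 1 was taken as NNCCAATNN, where the first 2 bases and the last are A or G and the base after CCAAT is C or G. It contains CCAAT, the core element of the NF-Y transcription factor. Motif 2, the classical SOX recognition sequence, was NNCAANG with A or T at each N. Motif 3 was a pair of Motif 2 copies facing each other over 4 bp, and up to 2 mismatches in 1 copy were allowed here. Matches on either strand were counted up to 100 bp from each summit. The 3 windows of 151 bases that follow show Motif 1 matches within that distance, in capitals. They are + strand hg19 sequence, centred on the summit, at chr2:227656421-227656571, chr19:7198100-7198250 and chr12:53473199-53473349.
IRS1 intron 1: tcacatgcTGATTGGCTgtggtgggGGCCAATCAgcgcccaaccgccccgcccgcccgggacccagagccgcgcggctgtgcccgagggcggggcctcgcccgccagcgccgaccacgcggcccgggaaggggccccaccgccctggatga
INSR intron 2: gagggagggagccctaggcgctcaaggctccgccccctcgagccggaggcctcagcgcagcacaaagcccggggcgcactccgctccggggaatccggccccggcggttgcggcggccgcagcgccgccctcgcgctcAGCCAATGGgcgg
SPRYD3 promoter: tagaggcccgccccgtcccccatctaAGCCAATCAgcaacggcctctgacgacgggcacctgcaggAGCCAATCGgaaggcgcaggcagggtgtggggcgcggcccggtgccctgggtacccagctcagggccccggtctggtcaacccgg
The IRS1 window held AGCCAATCA on the − strand and GGCCAATCA on the + strand, pointing away from each other with 8 bases between them. INSR held AGCCAATGG at 63 to 71 bases after the summit. The last window is the start region of the neighbouring gene SPRYD3 and lies in the 20 kb upstream of IGFBP6; it held AGCCAATCA and AGCCAATCG with 31 bases between them. In all, Motif 1 was present at 4 of 23 peaks, against 8.98% of all SOX9 peaks. None of the 8 promoter peaks of the genes held it within 100 bp. Of the 13 peaks farther than 1 kb from any protein-coding TSS 3 held it, while 3.47% of such peaks in the whole list did; of the 10 nearer ones 1 held it, against 14.8%.

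The intronic sites of IRS1 and INSR shared a base composition that the search did not use. In the 201 bp at each summit the GC content was 79.1% in IRS1 and 77.1% in INSR, where the median was 47.8% for all peaks away from coding TSSs and 67.7% for those within 1 kb of one. Their ratio of observed to expected CpG was 0.891 and 0.838. Peaks away from coding TSSs had a median ratio of 0.241, those among them with Motif 1 one of 0.375, and peaks within 1 kb of a coding TSS one of 0.871. In the CpG ratio both sites were close to the promoter peaks, and in GC content they were above them. A CpG ratio of 0.8 or more was found at 5 of the 13 peaks of the IGF axis away from coding TSSs and at 7.9% of all such peaks. The highest of these ratios were at peaks without Motif 1, in IGF2 at −4590 bp (1.06) and in IRS2 at +1862 bp (0.931). For the IRS1 and INSR sites the nearest protein-coding TSS was one of the gene itself. The summit lay at +3466 bp from it in IRS1 and at −30186 bp in INSR.

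The other motifs were counted in the same way. CCAAT, with or without the flanks of Motif 1, was found at 7 of 23 peaks, against 26.4% of all peaks. Motif 2 was found at 2, against 20.5%, and Motif 3 at 0, against 3.57%. Of the 13 peaks farther than 1 kb from any protein-coding TSS 2 held Motif 2, against 32.7% of such peaks in the whole list. Of the 10 nearer ones 0 held it, against 7.68%. Both Motif 2 peaks had a pair of copies. One was a site in intron 2 of IGF1R, shown at chr15:99343676-99343826 because its copies, in capitals, face each other as in Motif 3 but with 6 bases between them.
IGF1R intron 2 site: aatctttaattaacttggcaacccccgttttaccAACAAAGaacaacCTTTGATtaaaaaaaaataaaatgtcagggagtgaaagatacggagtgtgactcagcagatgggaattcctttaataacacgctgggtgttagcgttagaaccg
The other was the peak in the 3′ UTR of IRS1, where the copies TTCAAAG and ATCAAAG lay to either side of the summit. Neither CCAAT nor Motif 2 was found within 100 bp at 15 of the 23 peaks, against 58.4% of all peaks. The same held for 7 of the 8 promoter peaks, against 64.5% of all peaks within 1 kb of a coding TSS.

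The ligand gene IGF2 (ENSG00000167244, chr11:2150342-2179621, − strand) had little SOX9 signal at its canonical TSS. Within 1 kb of it the highest 32-nt bin held 5 extended tags in the SOX9 library and 2 in the input, and the estimated tag counts were 10 and 7. Their ratio was 1.43, with an exact 95% interval of 0.491 to 4.42 that includes 1. The highest SOX9 bin within 1 kb of any of its 10 annotated TSSs was 8, with an input of up to 5. Both its peaks lay on the upstream side. One had its summit at −4590 bp from the canonical TSS and −2741 bp from the nearest TSS of IGF2, inside the longer transcripts and in overlap with IGF2-AS and the readthrough gene INS-IGF2. It held 40 tags at a fold enrichment over the local input (as MACS gives it) of 16.48, with a height of 30 in SOX9 and 4 in the input. The other summit, at −26922 bp, lay 463 bp inside TH, the gene of tyrosine hydroxylase, and held 47 tags at a fold of 9.34. Overlapping genes cannot be told apart by a peak.

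Of the binding protein genes, IGFBP2 and IGFBP3 were near the input. IGFBP2 (ENSG00000115457, chr2:217497551-217529159, + strand) had 14 SOX9 and 8 input tags within 1 kb of its canonical TSS, a ratio of 1.75 (95% interval 0.685 to 4.81), and its highest bins were 3 and 4. IGFBP3 (ENSG00000146674, chr7:45951844-45961473, − strand) had 13 and 6 tags, a ratio of 2.17 (0.768 to 6.95), and bins of 3 and 2. At this depth a difference from the input was not detectable at either TSS. For IGFBP3 the highest signal in the 3 kb around the TSS stood at −2218 bp, where SOX9 reached 13 and the input 7, and no peak was called there.

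IGFBP4 (ENSG00000141753, chr17:38599702-38613977, + strand), which encodes a binding protein that inhibits IGF action, had 1 peak. Its summit lay at +402 bp from the only annotated TSS, in the coding part of exon 1 of 4, at chr17:38600029-38600179. No capitals appear in that window because no motif was matched in it.
IGFBP4 exon 1: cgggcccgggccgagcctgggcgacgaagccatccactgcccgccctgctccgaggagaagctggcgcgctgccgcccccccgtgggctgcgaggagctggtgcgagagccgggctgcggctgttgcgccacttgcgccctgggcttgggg
The peak held 45 tags (exact Poisson 95% interval 32.8 to 60.2), the median of all peaks. Its fold enrichment was 5.36, the lowest of the 23 peaks, and 2.42% of all peaks had a lower one. The MACS score, the negative log10 of its p-value times 10, was 81.43 and the empirical false discovery rate (FDR) 0.01%. SOX9 reached 13 at the peak and the input 4, and over the interval of 1005 bp the ratio was 3.31 (1.75 to 6.7). Inside the interval the signal had low maxima at +411, +763 and +891 bp, with heights of 12, 8 and 13, and a further maximum of 13 stood outside it at −101 bp. Within 1 kb of the TSS there were 65 SOX9 and 24 input tags, a ratio of 2.71 (1.67 to 4.52). Outside the peak, SOX9 also exceeded the input across the gene and its flanks by a ratio of 1.5, the highest of the 10 genes, whose other values lay between 0.871 and 1.23. The part of this surplus in the peak was not tested.

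IGFBP6 (ENSG00000167779, chr12:53491220-53496129, + strand), whose protein prefers IGF2, had a promoter peak of 23 tags, the fewest of the 23, at +1898 bp from the canonical TSS and +641 bp from another, in intron 1 of 3. Its fold was 11.54, and the heights were 21 in SOX9 and 8 in the input. The interval of 371 bp held 23 SOX9 and 7 input tags, a ratio of 3.29 (1.36 to 9.07). At the canonical TSS itself no summit was called, although 53 SOX9 tags stood against 25 in the input, a ratio of 2.12 (1.29 to 3.56). The second peak assigned to IGFBP6 was the much stronger one at SPRYD3, whose TSS it preceded by little (−86 bp). It held 139 tags at a fold of 24.35, and its heights of 74 and 7 were the largest difference among the 23. It stood at −18177 bp from IGFBP6, and its position is that of a SPRYD3 promoter peak.

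**Figure D2:**
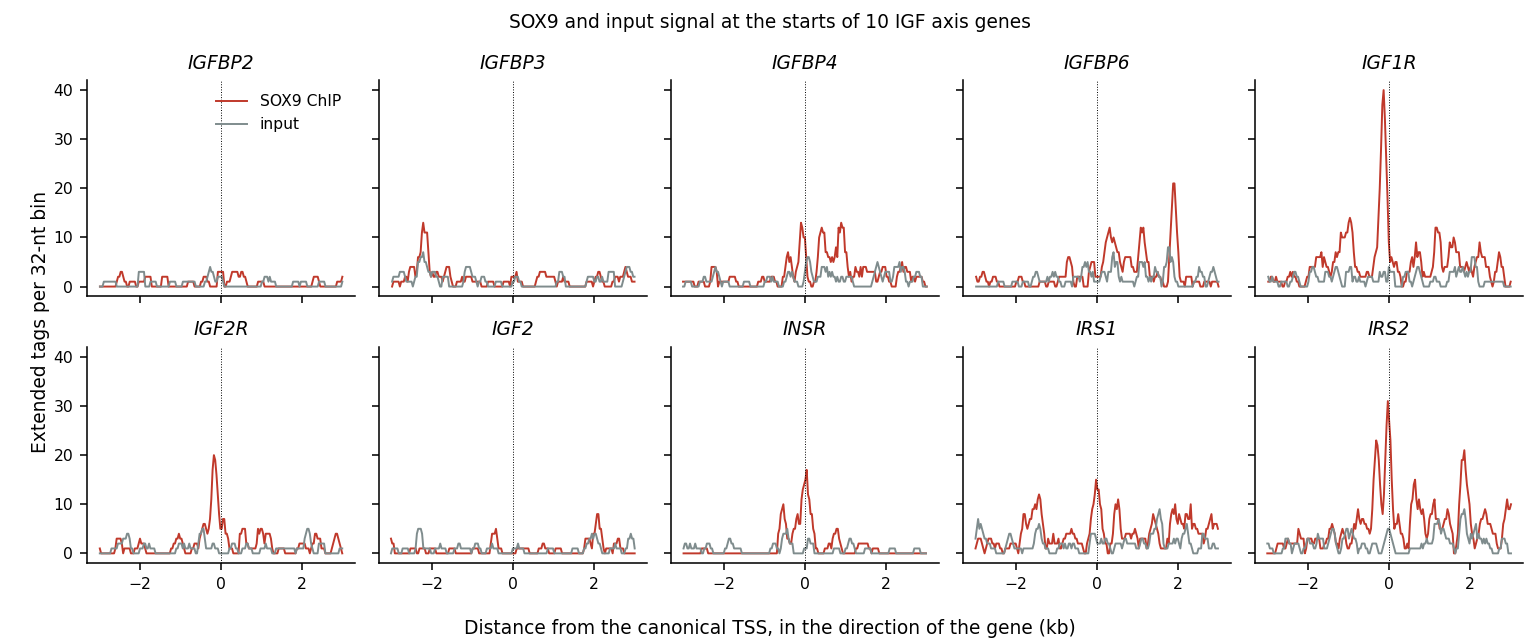
Extended tags per 32-nt bin of the SOX9 library (red) and the input (grey) within 3 kb of the canonical TSS of the 10 genes, in the direction of each gene. IGF1R reached 40 and IRS2 31 in the SOX9 library, IGFBP2, IGFBP3 and IGF2 stayed at 5 or lower within 1 kb, and the input did not exceed 7 within 1 kb of any of these TSSs.

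All 3 receptor genes had a peak close to the TSS. IGF1R (ENSG00000140443, chr15:99191768-99507759, + strand), the receptor of IGF1 and IGF2, showed the highest promoter signal, 40 in SOX9 against 4 in the input, and 92.7% of the protein-coding genes had a lower highest bin at the canonical TSS. That summit lay at −137 bp and held 57 tags at a fold of 24.87, with a ratio of 8.14 (3.71 to 21.2) over its interval. The window is chr15:99191556-99191706 and holds no match to the motifs.
IGF1R promoter: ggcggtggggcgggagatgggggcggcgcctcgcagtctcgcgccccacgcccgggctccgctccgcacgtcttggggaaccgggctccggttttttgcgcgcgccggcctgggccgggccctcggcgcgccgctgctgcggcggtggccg
IGF1R had 2 further promoter peaks. One of 35 tags at −982 bp lay at −168 bp from the TSS of IRAIN, a long non-coding RNA on the opposite strand. The other, of 36 tags, lay at +1180 bp in intron 1 of 20 and 137 bp after another TSS. They were lower than the central one, with heights of 14 and 12 against an input of 4 each. Over the 1 kb to either side of the canonical TSS, 92 SOX9 and 21 input tags gave a ratio of 4.38 (2.7 to 7.41).

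The other 3 peaks of IGF1R stood in intron 2. The strongest had 76 tags, a height of 58 against 4 in the input and a fold of 26.1, the highest fold of the 23 peaks. It exceeded the promoter peak in tags, height and fold, but not in the ratio to the input over the interval, which was 6.42 (3.47 to 13.0) against 8.14 (3.71 to 21.2) with overlapping intervals. Those at +79205 bp (47 tags, fold 9.69) and +151983 bp (42 tags, fold 7.14) were lower, with heights of 20 and 16. Other annotated TSSs of IGF1R lay closer to these summits, which stood at −6968 and −20344 bp from the nearest one.

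INSR (ENSG00000171105, chr19:7112266-7294425, − strand), the insulin receptor gene, had a peak in the 5′ UTR of exon 1 at +48 bp. It held 45 tags at a fold of 12.65, with heights of 17 and 5, and its ratio was 4.89 (2.36 to 11.4). The second peak, at +96250 bp in intron 2 of 21, was the Motif 1 site given above. It held about as many tags (41) in a narrower interval, 669 against 996 bp, and its height was 33 with an input of 4 and its fold 21.43. IGF2R (ENSG00000197081, chr6:160390114-160534539, + strand), the receptor that clears IGF2, had a single peak at −183 bp with 36 tags, a fold of 17.24, heights of 20 and 5 and a ratio of 5.14 (2.26 to 13.7). No further summit was found across its 144 kb or the flanks.

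**Figure D3:**
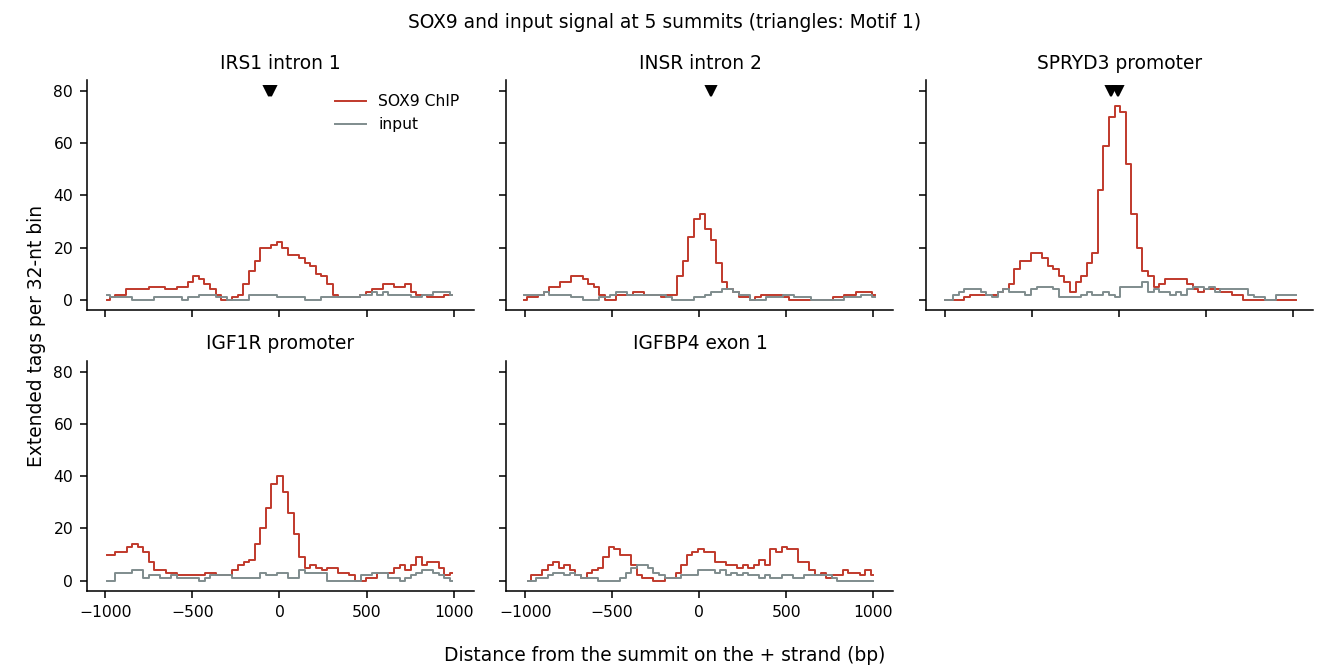
Extended tags per 32-nt bin of the SOX9 library (red) and the input (grey) within 1 kb of 5 summits, by distance on the + strand in bp; triangles mark Motif 1. The SPRYD3 and INSR summits with Motif 1 reached 74 and 33, the IRS1 one reached 22 over a wider base, and IGFBP4 showed separate low maxima of 12 and 13.

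The substrate genes differed in the number of peaks. IRS1 (ENSG00000169047, chr2:227596028-227664536, − strand) had no called peak at its TSS, although the signal there reached 15 with an input of 4. The 57 SOX9 and 21 input tags within 1 kb gave a ratio of 2.71 (1.62 to 4.71), the same as at IGFBP4, where a peak was called. Its Motif 1 site in intron 1, at +8040 bp, held 50 tags at a fold of 17.08 with heights of 22 and 2. Its ratio of 12.2 (4.49 to 46.7) was the highest of the 23, on 4 input tags, and its interval overlapped those of all other peaks. The peak in the 3′ UTR at +66413 bp had 39 tags and a fold of 12.73.

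IRS2 (ENSG00000185950, chr13:110405042-110438930, − strand) carried the most peaks of the 10 genes. Those at −23, +1862 and +2908 bp nearly abut, at chr13:110437343-110439924, 110436856-110437263 and 110435612-110436817. They were counted singly, as the caller gave them. Genes with 6 or more summits in the gene or 20 kb around it made up 1.92% of the protein-coding genes and 2 of the 10 here, IRS2 with 7 and IGF1R with 6. Among genes of 100 kb or more, 4.28% had so many. IRS2, of 33.9 kb, is shorter and IGF1R, of 316.0 kb, longer than that length. The limit of 6 is the count of IGF1R itself, so rarity cannot be read from these shares. With 4 or more summits the share was 8.63%, and IRS2 and IGF1R were again the only members. With its abutting peaks joined, IRS2 would fall below 6. The IRS2 peak of most tags lay at −23 bp from its only TSS. It held 146 tags (123.0 to 172.0) over 2582 bp, the longest interval of the 23, so that many of its tags lie away from the summit. Its fold was 14.1, its heights 31 and 7, and its ratio 4.15 (2.83 to 6.22). The bases upstream of that TSS are shown at chr13:110438931-110439081, with CCAAT on the − strand (ATTGG as printed) and a Motif 1 match in capitals.
IRS2 promoter: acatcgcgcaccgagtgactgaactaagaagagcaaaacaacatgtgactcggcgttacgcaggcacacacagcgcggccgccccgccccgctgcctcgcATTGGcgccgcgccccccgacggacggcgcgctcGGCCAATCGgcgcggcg
The CCAAT lay 78 to 82 bases from the summit. The Motif 1 match GGCCAATCG lay 112 to 120 bases from it, outside the 100 bp used for the counts, and at −135 to −143 bp from the TSS.

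The other IRS2 peaks were lower. Those in the coding part of exon 1, at +1862 and +2908 bp, held 32 and 45 tags at folds of 5.83 and 5.86, and the one in intron 1 at +8262 bp held 34 at 6.63. These 3 and the IGFBP4 peak had an FDR above 0, up to 0.06% at +1862 bp. An FDR of 0 was given for the other 19 of the 23 and for 80.3% of all peaks. Upstream peaks at −17450 and −8615 bp held 45 and 32 tags at folds of 12.28 and 11.22. The peak downstream of the gene, at +42717 bp from the TSS, held 73 tags at a fold of 8.12. The peaks at +1862, +2908 and +8262 bp lay nearest to the TSS of ENSG00000275741, a long non-coding RNA (−1110, −2156 and −7510 bp). The summits at −17450, −8615 and −23 bp lay inside that gene. The peaks at −17450 and +42717 bp were nearest to the TSSs of ENSG00000275248 (−1284 bp) and ENSG00000285534 (−12166 bp), also long non-coding RNAs. The nearest protein-coding TSS was that of IRS2 in each case. The gene served by each peak was not tested. The input over IRS2 and its flanks stood at 2.34 times the autosomal median, the highest of the 10 genes, while INSR was lowest at 0.583. SOX9 outside the IRS2 peaks followed the input at a ratio of 1.01. The part of this higher input in the number of IRS2 peaks was not tested.

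Over all 10 canonical TSSs the SOX9 to input ratio had an interval above 1 in 7 genes, against 52.7% of the protein-coding genes measured. These were the 6 with a promoter peak and IRS1. The order by ratio was IRS2 (6.11, interval 3.74 to 10.5), IGF1R (4.38), INSR (4.25, 2.24 to 8.76), IGF2R (3.57, 1.94 to 7.0), IGFBP4 and IRS1 (both 2.71), IGFBP3, IGFBP6, IGFBP2 and IGF2. Nearly all of these intervals overlapped. Only that of IRS2 lay above another, that of IGFBP6 (1.29 to 3.56), while it overlapped those of IGFBP3, IGFBP2 and IGF2, whose few tags gave wide intervals. The order of the other genes was therefore not resolved at this depth.

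**Figure D4:**
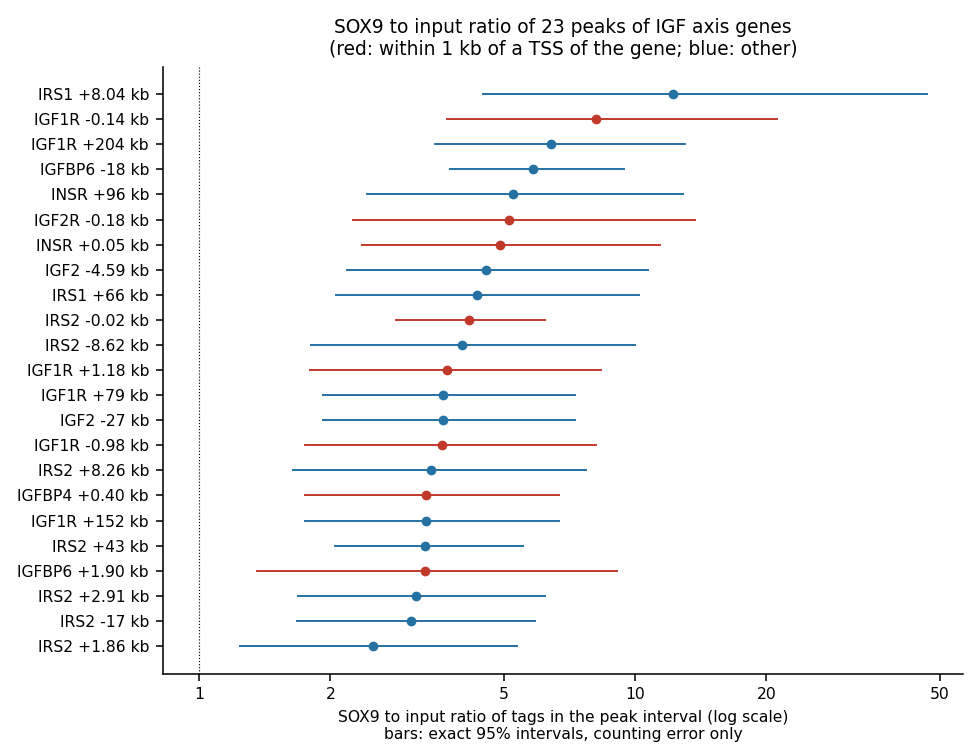
Ratio of SOX9 to input tags over the interval of each of the 23 peaks (horizontal axis, log scale), with exact 95% intervals for counting error; red peaks lie within 1 kb of a TSS of the gene and blue ones elsewhere, and labels give the distance from the canonical TSS. The ratios run from 2.5 to 12.2, and every interval lies above 1 and overlaps every other.

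The 23 peaks were of ordinary strength for the list. Their median was 45 tags (range 23 to 146), as for all peaks (45), and their median fold was 11.5 against 10.4. All 23 ratios over the interval exceeded 1 beyond counting error, which follows from the way peaks are called. The 8 promoter peaks had a median of 40.5 tags, where all peaks within 1 kb of a coding TSS had 56.0, and 6 of the 8 were below that value. By fold the direction was the opposite, with a median of 12.1 for the 8 and 10.0 for all peaks within 1 kb of a coding TSS. Between the genes, the strongest promoter peaks changed places with the measure. By tags the order was IRS2, IGF1R, IGFBP4 and INSR together, IGF2R and IGFBP6, whereas by height it was IGF1R, IRS2, IGFBP6, IGF2R, INSR and IGFBP4. IGFBP4 shared place 3 by tags and was last by height and by fold.

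**Figure D5:**
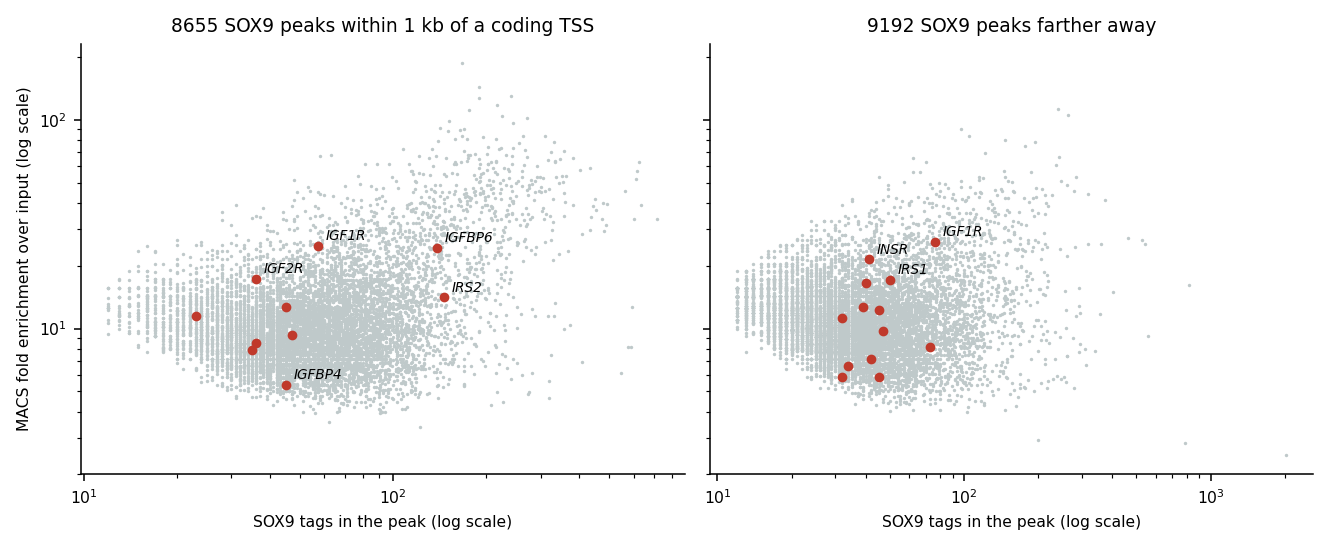
MACS fold enrichment over the input (vertical axis) against SOX9 tags (horizontal axis, both log scales) of all 17847 peaks in grey and the 23 peaks of the IGF axis in red, for peaks within 1 kb of a coding TSS (left) and the others (right). The IGF axis peaks lie inside the cloud, with IGFBP4 at its lower edge (fold 5.36) and the IGF1R promoter (24.87), SPRYD3 (24.35, marked IGFBP6) and IGF1R intron 2 (26.1) peaks in its upper part.

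The rest of the pathway was counted from lists written by role, with 54 genes. A promoter peak was found at 31 of them (57.4%) and a peak in the gene or 20 kb around it at 38 (70.4%), beside 44.8% and 65.3% of all protein-coding genes. A promoter peak was found at 0 of 6 other ligand and binding protein genes, although 3 of them (IGFBP1, INS and IGFALS) had a peak in the gene or 20 kb around it. None of the 4 genes of binding protein proteolysis (PAPPA, PAPPA2, STC1, STC2) had a peak of either kind. The lists were not tested against each other. Receptor adaptors had a promoter peak in 7 of 10 genes, among them SHC1 (116 tags), SH2B1 (91) and SOS1 (65), which link receptors to Ras and JAK signalling. The receptor phosphatases and SOCS proteins, which turn receptor signalling down, had 4 of 6, led by PTPN2 (86), PTPN1 (85) and SOCS1 (61). In the PI3K-AKT arm 10 of 15 had one, with PIK3R3 (274), a regulatory subunit of PI3-kinase, GSK3B (237) and the kinase gene AKT2 (161) at the top. In the mTOR arm, where RICTOR of mTORC2 was listed with the mTORC1 genes, it was 8 of 10, with DEPTOR (206), MLST8 (183) and RHEB (133). Of the genes for IGF2 mRNA-binding proteins, IGF2BP3 (81) and IGF2BP2 (31) had a promoter peak and IGF2BP1 had no peak.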

How the data were processed

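Single-end reads of 50 nt were mapped by the authors to hg19 with BWA. They kept unique alignments without duplicates and downsampled the input to the ChIP library. They called peaks with MACS (p cut-off 1e-07, mfold 16, band width 150). The deposited peak table gives counts of ChIP tags, a score (the negative log10 of p, times 10), a fold ratio over the local input and an FDR in percent. The deposited signal maps hold signal as tags, extended to 150 bp, per 32-nt bin, without scaling.

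The 10 genes and the pathway lists were chosen with earlier results of these data known. All 10 genes are named, as are most other genes whose TSS was nearest to a peak, and up to 3 genes of each pathway list by promoter peak tags. For 10 of the 23 peaks the nearest TSS was that of another gene, and for 2 the nearest protein-coding TSS was. Summits were placed on GENCODE release 44 for hg19. Tags were estimated as the summed signal divided by 5, since each tag filled 5 bins, and the interval of a ratio is Clopper-Pearson at 95%. Motif shares were counted in all peaks. Heights are the highest bin. Sequences were read from GRCh37, the mitochondrial chromosome being left out, and the sequence of 1 peak is not reported here. The procedures were tested on simulated data. Alternatives were other peak limits, windows, flanks, TSS sets and measures of strength. Software was pysam 0.24.0, pandas 2.3.3, SciPy 1.17.1 and NumPy 2.4.6 under Python 3.11.15, with matplotlib 3.10.9 for the plots.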

Additional observations from a re-analysis of the deposited data

How the results depend on the processing

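No paired analysis was possible because each kind of library was sequenced once. The counts of genes with a peak stayed within 1.5 times under other peak limits, positions, windows and TSS sets, but individual genes left: a score of 100 or more kept 4 of the 6 genes with a promoter peak, without IGFBP4 and IGFBP6, and an FDR of 0 kept 5, without IGFBP4. A TSS window of 500 bp gave 5 of 10, against 42.7% of all protein-coding genes, and one of 3 kb gave 7, against 47.5%. The number of peaks assigned changed from 23 to 14 with no flank (in 7 genes) and to 35 with 50 kb, and the share of all protein-coding genes with a peak to 34.3% with no flank. Ordering the 6 genes by height or by fold left 0 in the place given by tags, in either case. CCAAT was counted at 2 peaks within 25 bp of the summit and at 11 of 23 over the whole interval, against 60.7% of all peaks over their intervals. Motif 2 was counted at 0 within 25 bp and at 10 of 23 over the interval, against 50.1%. The shares of all peaks within 25 bp were not counted. Of the 16 other values of the ratio at each gene's strongest peak, 12 stayed within the counting interval. Depth limits the weak TSSs: with 6 to 8 input tags the intervals at IGFBP2, IGFBP3 and IGF2 do not exclude a ratio of 4. One library cannot show variation between experiments, and occupancy was not related to expression here.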

Other observations

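Beyond the 20 kb flanks, some of the strongest signal near these genes belonged to neighbours. The peak at −25387 bp from IGFBP4 lay at −167 bp from the TSS of TOP2A, the topoisomerase gene of dividing cells, and held 203 tags at a fold of 61.43, with heights of 135 and 6 and Motif 1 within 25 bp of its summit. The IGFBP4 peak itself had 45 tags at a fold of 5.36. A further peak of 17 tags stood just outside the flank, at −20165 bp, and 2 peaks of 27 and 43 tags lay in TNS4 on the other side. The only IGFBP3 peak within 50 kb stood at +35721 bp, a site of 61 tags that lies at −2809 bp from the TSS of IGFBP1, another binding protein gene. At IRS1, a peak of 57 tags at −36150 bp lay 34 bp inside RHBDD1 and had a fold of 4.42, and 0.263% of all peaks had a lower one. IGF2 had 4 more peaks of 60 to 73 tags, none within 1 kb of a protein-coding TSS, and IGF2R and IRS2 had 1 each, of 29 and 30 tags.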
